A study of Homo sapiens with 10 samples.

Results

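The 9 genes described here encode glutathione, thioredoxin, quinone, heme and iron storage proteins whose transcription NRF2 drives: GCLC, GCLM, TXN, TXNRD1, SRXN1, NQO1, HMOX1, FTH1 and FTL. They were taken as a fixed list of symbols, matched through their human Ensembl gene identifiers, and all 9 were found among the 58229 genes of the deposited table and among the 12872 genes tested. The series measured mRNA in 10 libraries from 2 multiple myeloma lines, NCI-H929 (labelled H929) and a line labelled only OCI, 5 libraries each. In each line 1 library came from cells given AIMP1 protein, 1 from cells overexpressing AIMP1, 2 from cells with AIMP1 knockdown (numbered 1 and 2) and 1 from wild-type cells. AIMP1 is a scaffold of the multi-tRNA synthetase complex and is also secreted. The labels give no dose or time for the protein, no vector or agent for overexpression and knockdown, and no vehicle or vector control beside wild type. They make no statement on separate cultures, so p-values measure only the spread between these libraries, which may be technical. Where line and manipulation were fitted as additive terms, that spread also holds any difference between the lines in their response to a manipulation. The groups address how each manipulation altered these mRNAs relative to wild-type cells and how the lines differ.

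NRF2, encoded by NFE2L2, is a transcription factor that KEAP1 holds in the cytoplasm and presents to a CUL3 ubiquitin ligase for degradation. When electrophiles or oxidants modify KEAP1, or when the autophagy receptor p62 (SQSTM1) binds it, NRF2 accumulates, pairs with a small MAF protein and binds antioxidant response elements, from which BACH1 is displaced. Ferritin mRNAs are also controlled after transcription: iron regulatory proteins block their translation by binding a stem-loop near the 5′ end, and protect the mRNA of the transferrin receptor TFRC when iron is scarce. Plasma cells make much antibody, and the disulfide bonds formed in the secretory pathway draw on the same glutathione and thioredoxin systems.

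Promoter sequence is shown for the members whose window around the annotated start holds an antioxidant response element core. The transcript's first bases are shown for FTL, where they hold the letters of an iron responsive element loop. FTH1 had no window, so its first bases were not searched for the loop. The windows, from 250 bases before to 50 bases from the start, are those of RefSeq on GRCh38.p14, which need not be the build of the deposited table. Windows were matched for 7 of 9 members, 8 windows in all; HMOX1 and FTH1 had none. The core TGACNNNGC, searched on both strands, was found in 3 windows of 2 members, GCLM and TXNRD1, and in 13.3% of all 35116 windows. The AP-1 motif TGANTCA, found in 7.71% of all windows, was in none of the 8, so no core overlapped it. Each sequence is written 5′ to 3′ on the gene's strand, and capitals mark the core or the loop. The GCLM stretch lies at chr1:93909436-93909484 on the minus strand, positions -54 to -6 from the start, with the core TGACTAAGC on the opposite strand.
GCLM: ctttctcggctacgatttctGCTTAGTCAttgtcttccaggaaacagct
The TXNRD1 stretch at its first annotated start lies at chr12:104215660-104215779 on the plus strand, positions -119 to 1, with TGACTTCGC on the gene's strand and TGACGGAGC on the opposite one.
TXNRD1 first start: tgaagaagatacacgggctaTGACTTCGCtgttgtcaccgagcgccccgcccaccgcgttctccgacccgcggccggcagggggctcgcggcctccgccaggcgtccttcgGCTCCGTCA
At its second start, the stretch at chr12:104286910-104286958, positions -122 to -74, holds TGACAAAGC on the opposite strand.
TXNRD1 second start: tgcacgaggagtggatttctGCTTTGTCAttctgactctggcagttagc
The first 50 bases of the FTL transcript hold the loop letters CAGTGT, which 1.24% of all windows hold there. The stretch at chr19:48965329-48965358 on the plus strand covers positions 21 to 50.
FTL: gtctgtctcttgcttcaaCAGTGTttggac
NQO1, GCLC, SRXN1, TXN and FTL held no core in these windows. Sequence outside the windows was not searched, so these genes may hold an element elsewhere. A match is a description of letters, not a bound site.

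AIMP1 mRNA stood at 417% and 431% of wild type in OCI and H929 overexpression, and at 35.1%, 16.4% and 24.5% in OCI knockdown 1, OCI knockdown 2 and H929 knockdown 2. In the library labelled H929 knockdown 1 it was 98.2% of wild type, so AIMP1 mRNA does not bear out that label. Absolute depth is unknown. The step sizes of rarely detected genes put depth at 27.7% to 100% of OCI wild type in OCI libraries. In H929 libraries they put it at 27.6% to 41.9%. These depths are rough. In libraries other than OCI wild type, only 12.1% to 17.7% of the genes compared had a ratio to OCI wild type near the value used. All 9 plasma cell markers were listed above 0 in every library, with summed levels of 3567 to 4285 FPKM in OCI and 2900 to 4180 FPKM in H929; SLAMF7 stood at 0.18 to 0.99 FPKM in H929. OCI protein and OCI knockdown 1 stood apart: 583 genes were listed above 0 in this pair alone, against 138 in the next pair. Stromal and endothelial markers were listed above 0 in 10 of 10 cases in each of these 2 libraries and in 3 or 4 of 10 elsewhere, myeloid markers in 10 and 9 of 11 against 3 to 5, and T and NK cell markers in 8 and 7 of 9 against 2 to 4. Their summed levels in OCI protein and OCI knockdown 1 were 5.48 and 4.44 FPKM for stromal, 11.9 and 6.44 FPKM for myeloid and 12.0 and 5.59 FPKM for T and NK markers. In the other 8 libraries they were 0.491 to 8.86 FPKM, mostly PDGFRB in H929, for stromal, 2.0 to 8.60 FPKM for myeloid and 1.40 to 19.6 FPKM for T and NK markers, the highest being the library labelled H929 knockdown 1 with GNLY at 18.1 FPKM. Erythroid markers were above 0 in 2 to 4 of 9 cases; EPOR was the highest of them in every library, at 8.63 to 15.9 FPKM, and HBB had 2.23 FPKM in OCI protein and 1.18 FPKM in OCI overexpression. DCN, LUM, COL1A2, COL3A1, TYROBP and FCGR3A were above 0 in these 2 libraries and listed at 0 in the other 8, while ALAS2, GATA1, AHSP and MARCO were listed at 0 in all 10. The part of these transcripts in the results on OCI protein and OCI knockdown 1 was not tested.

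The 9 mRNAs spanned a wide range of abundance. FPKM is the number of fragments divided by transcript length and by the library's total fragments, so levels can be set beside each other across genes. Over the 10 libraries, FTL had a median of 871 FPKM, FTH1 of 612 FPKM and TXN of 375 FPKM, ranks 166, 198 and 269 among the 12872 tested genes. These 3 were the abundant members, followed by a gap. TXNRD1 had a median of 52.8 FPKM, NQO1 of 32.2 FPKM, HMOX1 of 19.3 FPKM, SRXN1 of 12.7 FPKM, GCLC of 6.67 FPKM and GCLM of 4.16 FPKM. Each pair of neighbours in this order overlapped in range except TXN, which stood at 193 FPKM or more, and TXNRD1, at 69.9 FPKM or less. The ratio of the highest to the lowest library ran from 2.10 for TXN to 3.99 for HMOX1. Reads shared with transcribed ferritin and thioredoxin pseudogenes make FTH1, FTL and TXN uncertain, since how reads matching several places were handled is not stated. The 25 FTH1 copies in the table, 12 of them ever above 0, summed to 0.847% to 2.32% of FTH1; 1 of 16 FTL copies and 1 of 7 TXN copies were ever above 0, at up to 0.0256% of FTL and 1.07% of TXN.

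**Figure D1:**
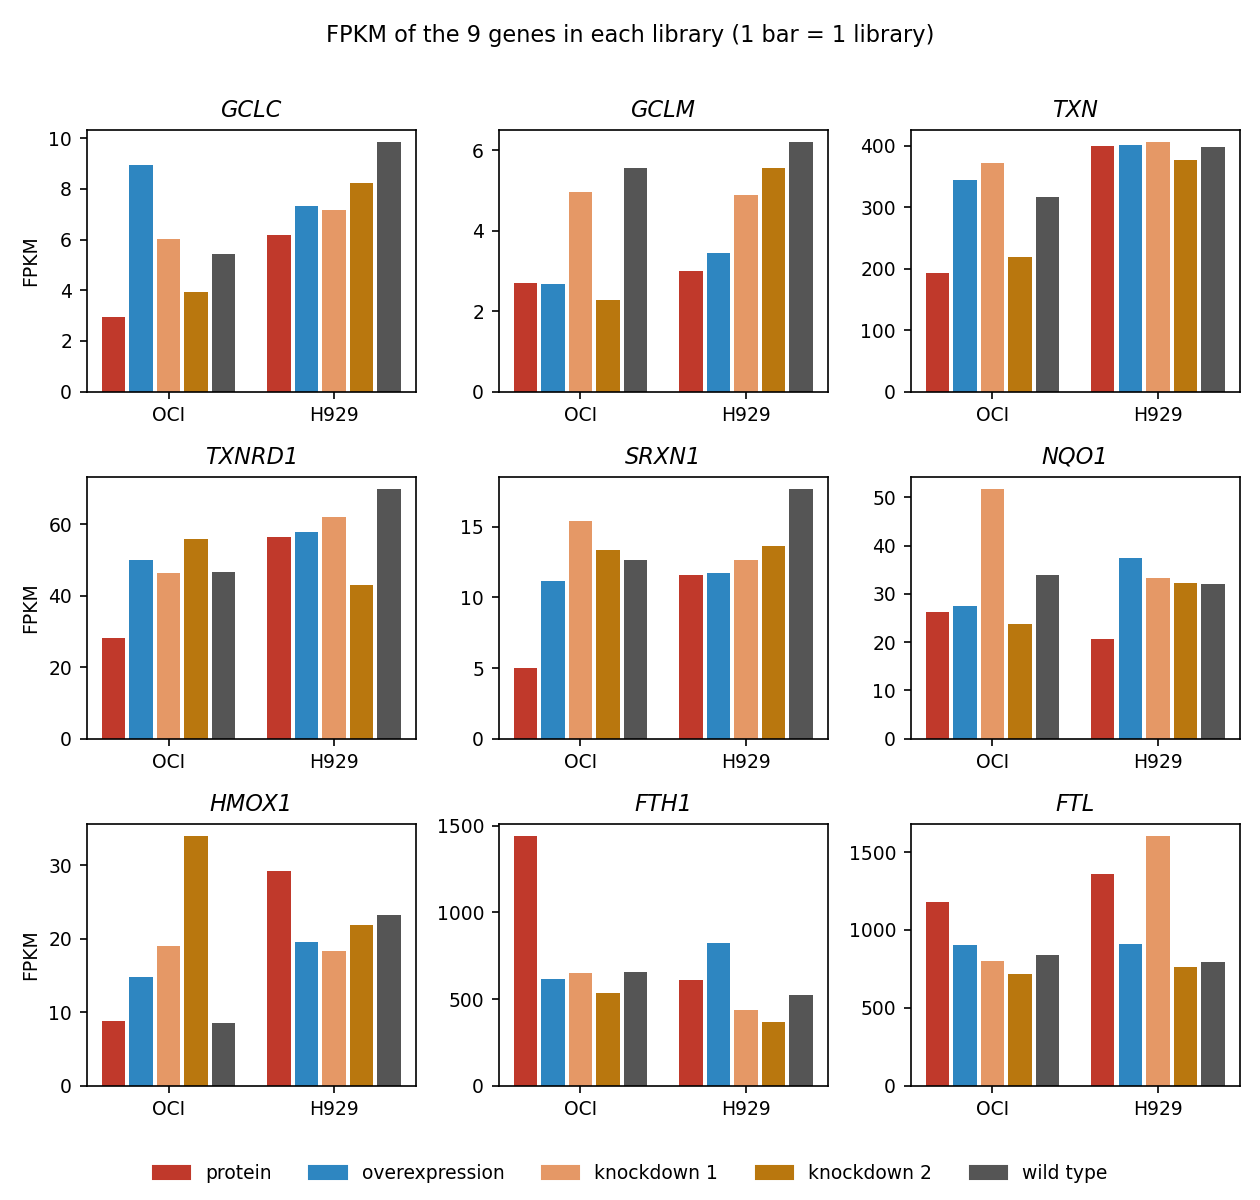
Level of each of the 9 genes in FPKM (vertical axis, from 0, a scale per gene) in each library (1 bar), grouped by line and coloured by manipulation. The protein bars of GCLC, GCLM, TXNRD1, SRXN1 and NQO1 are below the wild-type bar in both lines and those of FTH1 and FTL above it, with OCI protein FTH1 at 1441 FPKM.

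In cells given AIMP1 protein, GCLC, GCLM, TXNRD1, SRXN1 and NQO1 mRNAs had lower values in both lines than wild type did. FTH1, FTL and HMOX1 mRNAs had higher values, HMOX1 in OCI by little, at 1.03 times wild type. No member passed the test. Under limma's additive model of line and manipulation on log2(FPKM + 1), with Benjamini-Hochberg adjustment over all tested genes, 0 of 9 members were called in protein against wild type, where 0.0155% of genes were called (2, both higher). At an unadjusted p under 0.05, 2 members were lower, SRXN1 and GCLM, and 0 were higher, beside 5.79% of all genes lower and 13.2% higher. Of the 9, 5 were lower in both lines and 3 higher in both, beside 23.7% and 36.7% of all tested genes; TXN had opposite signs in the lines. The median log2 difference of the 9 was -0.48, and that of all tested genes 0.14. That shift of all genes was removed by centring each library on its median, which put SRXN1 at -1.03, GCLM at -0.98, GCLC at -0.79, FTH1 at 0.53, FTL at 0.49 and HMOX1 at 0.03 with every sign kept. In these bulk libraries, fewer cells of a kind and less RNA per cell cannot be told apart. OCI protein was the lowest of all 10 libraries for 4 of the 9, TXN, TXNRD1, SRXN1 and GCLC, and for 19.7% of all tested genes, and it was the highest for FTH1 and for 22.8% of all tested genes. H929 wild type was the highest of all 10 libraries for GCLC, GCLM, TXNRD1 and SRXN1, 4 of the 9, and for 7.97% of all tested genes.

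**Figure D2:**
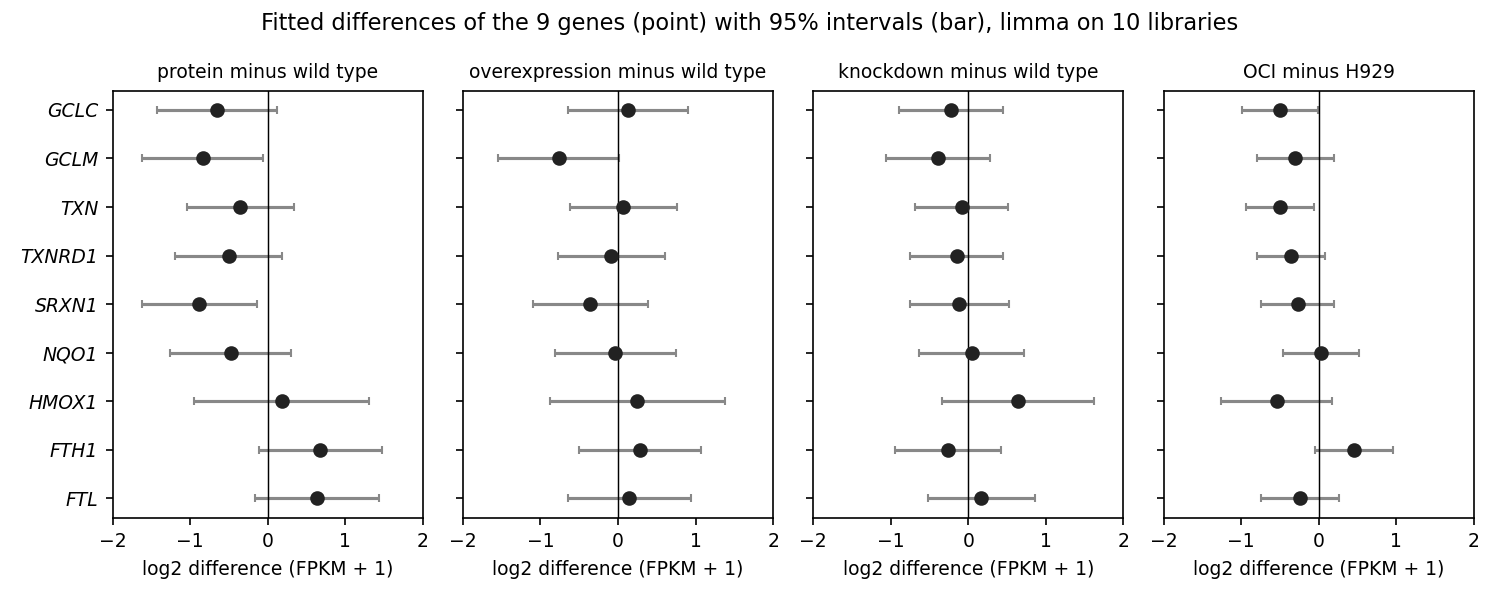
Fitted log2 difference on the log2(FPKM + 1) scale (horizontal axis) of each of the 9 genes in 4 comparisons, with its 95% interval. In protein minus wild type the intervals of GCLM and SRXN1 lie below 0 before adjustment, and the largest point in knockdown minus wild type is HMOX1 at 0.64.

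GCLC and GCLM encode the catalytic and the modifier subunit of glutamate-cysteine ligase, which makes the first, rate-limiting step of glutathione synthesis. GCLM stood at 2.70 FPKM in OCI protein, 2.68 FPKM in OCI overexpression, 4.96 and 2.28 FPKM in OCI knockdown 1 and 2, and 5.57 FPKM in OCI wild type. It stood at 2.99 FPKM in H929 protein, 3.44 FPKM in H929 overexpression, 4.88 and 5.56 FPKM in the libraries labelled H929 knockdown 1 and 2, and 6.20 FPKM in H929 wild type. Wild type was the highest library of its line in both lines, and each of the 8 manipulated libraries was below it. Here and for the genes below, every manipulated library is set against the same wild-type library of its line. Agreement across manipulations is therefore not independent, and the share of all tested genes with such agreement was not counted. Protein was 0.485 times wild type in OCI and 0.482 times in H929, a log2 difference of -0.84 ± 0.35 (SE; limma adjusted p = 0.236; 95% interval -1.62 to -0.06). Overexpression was 0.481 times wild type in OCI and 0.555 times in H929, a difference of -0.77 ± 0.35 (adjusted p = 0.742). Knockdown gave -0.39 ± 0.30 (adjusted p = 0.980), with OCI knockdown 2 at 0.409 times wild type and the other 3 libraries labelled knockdown at 0.787 to 0.897 times. Without OCI knockdown 2 the knockdown difference was -0.19.

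GCLC stood at 2.95 FPKM in OCI protein, 8.96 FPKM in OCI overexpression, 6.04 and 3.93 FPKM in OCI knockdown 1 and 2, and 5.42 FPKM in OCI wild type. In H929 it stood at 6.16 FPKM in protein, 7.30 FPKM in overexpression, 7.17 and 8.22 FPKM in the libraries labelled knockdown 1 and 2, and 9.85 FPKM in wild type. H929 wild type again was the highest of its line, whereas in OCI the overexpression library was highest, at 1.65 times wild type against 0.742 times in H929. Its log2 difference in protein was -0.65 ± 0.35 (limma adjusted p = 0.331), in overexpression 0.12 ± 0.35 (adjusted p = 0.938) and in knockdown -0.22 ± 0.30 (adjusted p = 0.980). The protein difference was -0.42 without OCI protein and -0.88 without H929 protein. That in knockdown was -0.06 without H929 wild type, -0.11 without OCI knockdown 2 and -0.39 without OCI wild type. The subunits did not keep 1 ratio: GCLC over GCLM was 1.09 in OCI protein, 3.34 in OCI overexpression and 0.974 in OCI wild type, and 2.06, 2.12 and 1.59 in the matching H929 libraries.

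Of 23 tested genes of glutathione supply, synthesis, recycling and use, 0 were called in either direction in protein, overexpression or knockdown against wild type. At an unadjusted p under 0.05, 5 were higher and 3 lower in protein, 1 higher in overexpression and 1 higher in knockdown. In protein the list's median was 0.34, beside 0.14 for all genes. SLC7A11 and SLC3A2 are the chains of the cystine importer that feeds glutathione synthesis. SLC7A11 stood at 10.1 FPKM in OCI protein, 1.21 FPKM in OCI overexpression, 1.69 and 8.58 FPKM in OCI knockdown 1 and 2, and 1.28 FPKM in OCI wild type. In H929 the protein library had 1.42 FPKM and the wild-type library 1.55 FPKM. The protein difference of SLC7A11 was 1.10 ± 0.72 (limma adjusted p = 0.421) and that of SLC3A2 1.49 ± 0.50 (adjusted p = 0.181). CHAC1, an enzyme that breaks glutathione down, stood at 127 FPKM in OCI protein and 11.5 FPKM in OCI wild type, and at 39.7 FPKM in H929 protein and 3.0 FPKM in H929 wild type, a difference of 3.35 ± 1.02 (adjusted p = 0.164). CHAC1 was also high in OCI knockdown 2, at 122 FPKM, beside 8.58 FPKM for SLC7A11 and 2.28 FPKM for GCLM. In the library labelled H929 knockdown 1, CHAC1 was at 24.1 FPKM, SLC7A11 at 3.42 FPKM and GCLM at 4.88 FPKM. GSR, glutathione reductase, had 7.06 FPKM in OCI protein and 16.2 FPKM in OCI wild type, and 15.2 FPKM in H929 protein and 29.2 FPKM in H929 wild type (difference -0.99 ± 0.32, adjusted p = 0.172). MGST2, a membrane glutathione transferase, was above wild type in both overexpression libraries and all 4 libraries labelled knockdown, with differences of 1.58 ± 0.49 (adjusted p = 0.742) and 1.37 ± 0.42 (adjusted p = 0.980).

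TXN encodes thioredoxin, the small protein that reduces disulfides, TXNRD1 the cytosolic reductase that recharges it with NADPH, and SRXN1 sulfiredoxin, which repairs overoxidised peroxiredoxins. SRXN1 stood at 4.97 FPKM in OCI protein, 11.2 FPKM in OCI overexpression, 15.4 and 13.4 FPKM in OCI knockdown 1 and 2, and 12.6 FPKM in OCI wild type. It stood at 11.6 FPKM in H929 protein, 11.8 FPKM in H929 overexpression, 12.7 and 13.6 FPKM in the libraries labelled H929 knockdown 1 and 2, and 17.7 FPKM in H929 wild type. The OCI protein library was lowest by far, and in H929 wild type was highest by a margin larger than the range of the other 4. Protein was 0.394 times wild type in OCI and 0.655 times in H929, with a log2 difference of -0.88 ± 0.33 (limma adjusted p = 0.206; 95% interval -1.62 to -0.14), the lowest adjusted p among the 9 in that comparison. Without OCI protein the difference was -0.38, and without H929 protein -1.38. Overexpression gave -0.36 ± 0.33 (adjusted p = 0.803), lower in both lines, and knockdown -0.11 ± 0.29 (adjusted p = 0.983).

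TXNRD1 stood at 28.2 FPKM in OCI protein, 49.9 FPKM in OCI overexpression, 46.5 and 55.8 FPKM in OCI knockdown 1 and 2, and 46.6 FPKM in OCI wild type. In H929 the values were 56.4 FPKM in protein, 57.7 FPKM in overexpression, 62.1 and 42.9 FPKM in the libraries labelled knockdown 1 and 2, and 69.9 FPKM in wild type. OCI protein stood below the other 9 libraries. The protein difference was -0.51 ± 0.31 (limma adjusted p = 0.389), and -0.12 without OCI protein. TXN stood at 193 FPKM in OCI protein, 345 FPKM in OCI overexpression, 373 and 219 FPKM in OCI knockdown 1 and 2, and 318 FPKM in OCI wild type, whereas the 5 H929 libraries lay between 378 and 406 FPKM. TXN was therefore nearly level across manipulations in H929, with an SD of 0.04 on the log2 scale over the 5 H929 libraries, against 0.42 over the 5 OCI libraries, where protein and knockdown 2 were low. Its protein difference was -0.35 ± 0.31 (adjusted p = 0.549), and -0.01 without OCI protein.

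Of 18 tested thioredoxin and peroxiredoxin genes, 0 were called in protein, overexpression or knockdown. At an unadjusted p under 0.05, 4 were higher and 1 lower in protein, 2 higher and 1 lower in overexpression, and 0 in knockdown, and the list's protein median was 0.07. TXNIP, an arrestin that binds and inhibits thioredoxin, stood at 368 FPKM in OCI protein, 156 FPKM in OCI overexpression, 19.2 and 95.6 FPKM in OCI knockdown 1 and 2, and 22.3 FPKM in OCI wild type. In H929 it stood at 43.4 FPKM in protein, 116 FPKM in overexpression, 31.4 and 34.5 FPKM in the libraries labelled knockdown 1 and 2, and 12.0 FPKM in wild type. TXNIP was above wild type in every manipulated library except OCI knockdown 1, with differences of 2.88 ± 0.76 in protein (limma adjusted p = 0.135) and 2.96 ± 0.76 in overexpression (adjusted p = 0.742). PRDX1, an abundant cytosolic peroxiredoxin, stood at 41.6 FPKM in OCI protein, 309 FPKM in OCI overexpression, 400 and 114 FPKM in OCI knockdown 1 and 2, and 335 FPKM in OCI wild type, and at 245 to 334 FPKM in H929. The 2 OCI libraries in which PRDX1 was low were also those in which TXN was low. Its protein difference was -1.62 ± 0.69 (adjusted p = 0.241).

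NQO1 encodes a quinone reductase that is a widely used readout of NRF2. It stood at 26.3 FPKM in OCI protein, 27.4 FPKM in OCI overexpression, 51.7 and 23.7 FPKM in OCI knockdown 1 and 2, and 33.9 FPKM in OCI wild type. It stood at 20.7 FPKM in H929 protein, 37.5 FPKM in H929 overexpression, 33.4 and 32.4 FPKM in the libraries labelled H929 knockdown 1 and 2, and 32.0 FPKM in H929 wild type. H929 protein was the lowest of all 10 libraries and OCI knockdown 1 the highest. The log2 difference in protein was -0.48 ± 0.35 (limma adjusted p = 0.473), in overexpression -0.04 ± 0.35 (adjusted p = 0.990) and in knockdown 0.04 ± 0.30 (adjusted p = 0.994). The protein difference was -0.29 without H929 protein and -0.66 without OCI protein. Without OCI knockdown 1 the knockdown difference was -0.18, and under quantile normalization the overexpression difference was 0.07. Of 14 other tested NRF2 target genes, such as transporters, aldo-keto reductases and carbonyl reductases, 0 were called in protein, overexpression or knockdown. An unadjusted p under 0.05 was reached in protein by 1 higher and 1 lower gene, and in overexpression and knockdown by 0. The protein median of these 14 was 0.25, where the 9 members had -0.48 and all genes 0.14.

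HMOX1 encodes heme oxygenase 1, the inducible enzyme that opens heme and frees its iron. It stood at 8.79 FPKM in OCI protein, 14.8 FPKM in OCI overexpression, 19.0 and 34.0 FPKM in OCI knockdown 1 and 2, and 8.53 FPKM in OCI wild type. It stood at 29.2 FPKM in H929 protein, 19.5 FPKM in H929 overexpression, 18.4 and 21.9 FPKM in the libraries labelled H929 knockdown 1 and 2, and 23.2 FPKM in H929 wild type. OCI wild type was the lowest of all 10 libraries and OCI knockdown 2 the highest, and the lines ordered their libraries differently. Libraries labelled knockdown were 2.23 and 3.99 times wild type in OCI and 0.791 and 0.945 times in H929. In the 4 libraries labelled knockdown against 2 wild-type libraries the log2 difference was 0.64 ± 0.44 (limma adjusted p = 0.980), with 0 of 9 members called, as were 0% of all genes, and 0 at an unadjusted p under 0.05, beside 2.1% of all genes higher and 0.66% lower. Without OCI wild type the difference was 0.13, and without H929 wild type 1.14. The mean knockdown difference was 1.47 in OCI and -0.20 in H929. A test of that difference between lines, added after the values had been seen and using a model of 8 group means with 2 residual degrees of freedom, gave 1.67 ± 0.61 (adjusted p = 1; 95% interval 0.11 to 3.24) with an unadjusted p of 0.0401. In it 0 of 9 members and 0% of all genes were called, HMOX1 alone of the 9 having an unadjusted p under 0.05, and at that level 98 genes (0.761%) were higher and 64 (0.497%) lower. Without the library labelled H929 knockdown 1 the difference between lines was 1.55, without OCI knockdown 1 it was 2.08 and without OCI knockdown 2 it was 1.27. The protein difference of HMOX1 was 0.18 ± 0.51 (adjusted p = 0.870), which was -0.50 without H929 protein and -0.33 without OCI wild type. HMOX2, the constitutive heme oxygenase, stood at 40.4 to 79.1 FPKM and above HMOX1 in every library, with HMOX1 over HMOX2 between 0.108 in OCI wild type and 0.722 in H929 protein.

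Of 16 tested genes of heme synthesis, transport and breakdown, 0 were called in protein, overexpression or knockdown. At an unadjusted p under 0.05, 4 were higher in protein, 1 higher in overexpression and 0 in knockdown, and the list's protein median was 0.13. BLVRB, a biliverdin reductase, stood at 58.0 FPKM in OCI protein and 39.7 FPKM in OCI wild type, and at 165 FPKM in H929 protein and 50.9 FPKM in H929 wild type (difference 1.10 ± 0.47, limma adjusted p = 0.246). BLVRA, another biliverdin reductase, had opposite signs in the lines. It stood at 31.3 FPKM in OCI protein and 42.3 FPKM in OCI wild type, and at 93.7 FPKM in H929 protein and 69.1 FPKM in H929 wild type. PPOX, a late enzyme of heme synthesis, had 47.0 FPKM in OCI protein and 16.9 FPKM in OCI wild type, and 39.7 FPKM in H929 protein and 16.3 FPKM in H929 wild type (1.33 ± 0.41, adjusted p = 0.164).

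FTH1 and FTL encode the heavy chain of ferritin, which oxidises iron, and the light chain, which favours its storage. FTH1 stood at 1441 FPKM in OCI protein, 616 FPKM in OCI overexpression, 650 and 535 FPKM in OCI knockdown 1 and 2, and 656 FPKM in OCI wild type. It stood at 608 FPKM in H929 protein, 821 FPKM in H929 overexpression, 434 and 370 FPKM in the libraries labelled H929 knockdown 1 and 2, and 522 FPKM in H929 wild type. OCI protein was far above the other 9 libraries, and both libraries labelled H929 knockdown were below the other 8. Protein was 2.20 times wild type in OCI and 1.17 times in H929, a log2 difference of 0.68 ± 0.35 (limma adjusted p = 0.320) that was 0.18 without OCI protein. Knockdown gave -0.27 ± 0.31 (adjusted p = 0.980): FTH1 and GCLM were the members below wild type in all 4 libraries labelled knockdown, among them H929 knockdown 1, in which AIMP1 was not lower. So were 14.3% of all tested genes, and FTH1 in OCI knockdown 1 was at 0.991 times wild type. FTL stood at 1182 FPKM in OCI protein, 903 FPKM in OCI overexpression, 801 and 720 FPKM in OCI knockdown 1 and 2, and 840 FPKM in OCI wild type. It stood at 1362 FPKM in H929 protein, 907 FPKM in H929 overexpression, 1604 and 763 FPKM in the libraries labelled H929 knockdown 1 and 2, and 797 FPKM in H929 wild type. The protein libraries were 1.41 times wild type in OCI and 1.71 times in H929, a difference of 0.63 ± 0.36 (adjusted p = 0.353). The library labelled H929 knockdown 1, in which AIMP1 was not lower, was the highest of all 10 for FTL; the knockdown difference was 0.16 ± 0.31 (adjusted p = 0.980) with it and -0.10 without it.

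The ratio of light to heavy ferritin mRNA varied within lines. FTL over FTH1 was 0.820 in OCI protein, whereas the other 4 OCI libraries lay between 1.23 and 1.47. It was 2.24 in H929 protein, 3.70 and 2.06 in the libraries labelled H929 knockdown 1 and 2, 1.10 in H929 overexpression and 1.53 in H929 wild type. OCI protein was thus the only library with more FTH1 than FTL mRNA per length, and the protein libraries lay on opposite sides of wild type in the lines.

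Of 19 tested iron handling genes, 0 were called in protein, overexpression or knockdown. At an unadjusted p under 0.05, 2 were higher and 3 lower in protein, 2 lower in overexpression and 1 lower in knockdown. TFRC, the transferrin receptor that brings iron into the cell, stood at 27.3 FPKM in OCI protein, 66.1 FPKM in OCI overexpression, 109 and 25.2 FPKM in OCI knockdown 1 and 2, and 174 FPKM in OCI wild type. It stood at 29.1 FPKM in H929 protein, 39.5 FPKM in H929 overexpression, 47.7 and 53.4 FPKM in the libraries labelled H929 knockdown 1 and 2, and 76.8 FPKM in H929 wild type. Wild type was the highest of its line in both lines, as for GCLM and with the same limit. The log2 difference was -2.0 ± 0.56 in protein (limma adjusted p = 0.148), -1.16 ± 0.56 in overexpression (adjusted p = 0.742) and -1.15 ± 0.49 in knockdown (adjusted p = 0.980). STEAP3, the reductase that acts on iron taken up with transferrin, had 3.93 FPKM in OCI protein and 16.1 FPKM in OCI wild type, and 7.56 FPKM in H929 protein and 17.7 FPKM in H929 wild type (-1.46 ± 0.31, adjusted p = 0.108). SLC40A1, the iron exporter ferroportin, stayed between 1.3 and 4.71 FPKM (protein difference 0.04 ± 0.35, adjusted p = 0.962), and NCOA4, which delivers ferritin to lysosomes, between 36.3 and 52.3 FPKM (-0.17 ± 0.26, adjusted p = 0.756).

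**Figure D3:**
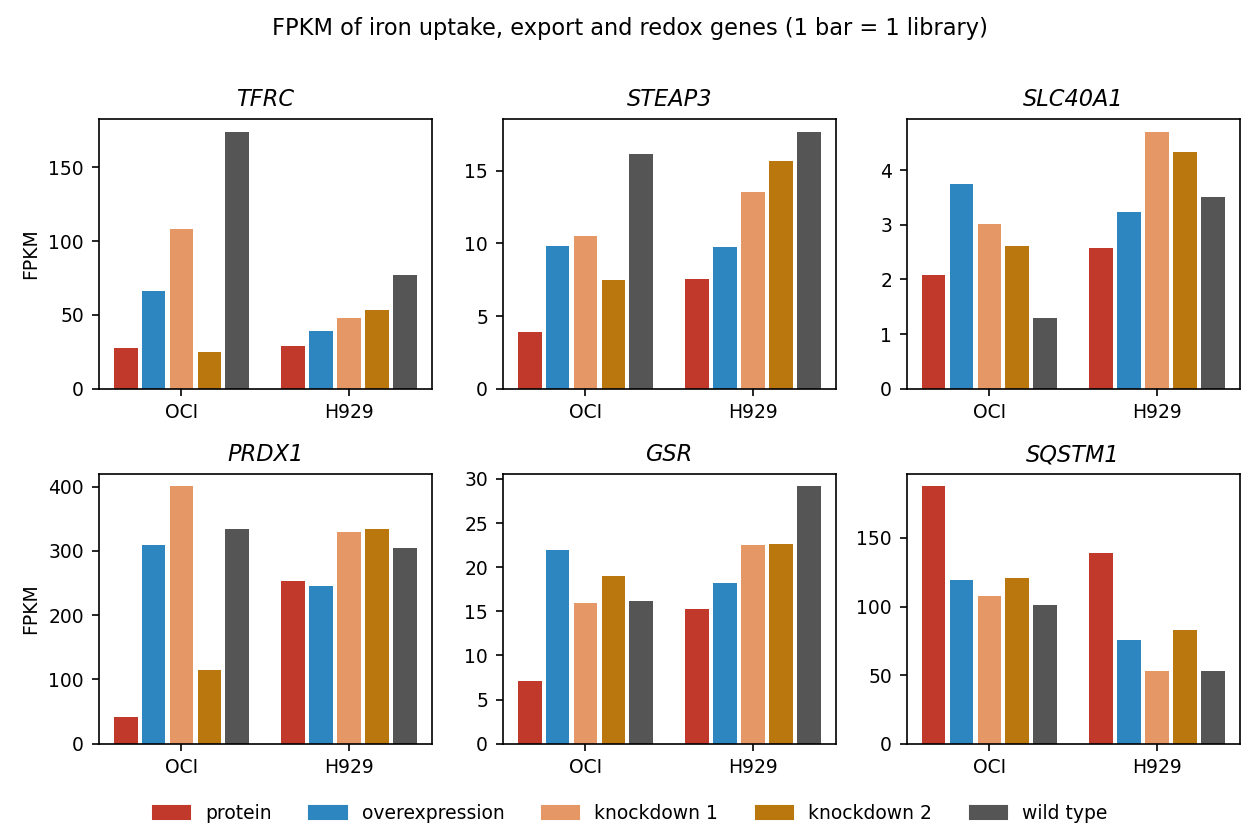
Level in FPKM (vertical axis, from 0) of TFRC, STEAP3, SLC40A1, PRDX1, GSR and SQSTM1 in each library (1 bar), grouped by line and coloured by manipulation. TFRC is highest in the wild-type library of each line, at 174 FPKM in OCI and 76.8 FPKM in H929, and SQSTM1 is highest in the protein library of each line.

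Among 13 tested regulators of NRF2, 0 were called in protein, overexpression or knockdown, with 2 higher and 1 lower in protein and 0 in the other comparisons at an unadjusted p under 0.05. SQSTM1 stood at 188 FPKM in OCI protein, 119 FPKM in OCI overexpression, 108 and 121 FPKM in OCI knockdown 1 and 2, and 101 FPKM in OCI wild type. It stood at 139 FPKM in H929 protein, 75.6 FPKM in H929 overexpression, 53.1 and 83.0 FPKM in the libraries labelled H929 knockdown 1 and 2, and 52.9 FPKM in H929 wild type. SQSTM1 was above wild type in all 8 manipulated libraries, in the library labelled H929 knockdown 1 by less than 1 FPKM. These libraries share the wild-type library of their line, and the share of all genes with this pattern was not counted. The protein difference of SQSTM1 was 1.13 ± 0.27 (limma adjusted p = 0.124). NFE2L2 itself stood at 25.4 FPKM in OCI protein and 18.5 FPKM in OCI wild type, and at 14.4 FPKM in H929 protein and 11.4 FPKM in H929 wild type (0.37 ± 0.33, adjusted p = 0.551). KEAP1 stood at 74.1 FPKM in OCI protein and 71.2 FPKM in OCI wild type, and at 34.3 FPKM in H929 protein and 60.8 FPKM in H929 wild type (-0.37 ± 0.30, adjusted p = 0.513). In overexpression KEAP1 was lower in both lines, at -0.64 ± 0.30 (adjusted p = 0.742). BACH1, the repressor that occupies antioxidant response elements, gave 0.49 ± 0.27 in protein (adjusted p = 0.344), CUL3 -0.85 ± 0.37 (adjusted p = 0.253) and MAFF, a small MAF partner, 0.80 ± 0.34 (adjusted p = 0.244).

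Of 10 tested genes that supply NADPH, the electron source for GSR, TXNRD1 and NQO1, 0 were called in protein, overexpression or knockdown, and 1, PGLS of the pentose phosphate pathway, was higher in protein at an unadjusted p under 0.05 (0.79 ± 0.29, limma adjusted p = 0.202). Of 3 tested superoxide and peroxide enzymes 0 were called in these comparisons, and 0 had an unadjusted p under 0.05.

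**Figure D4:**
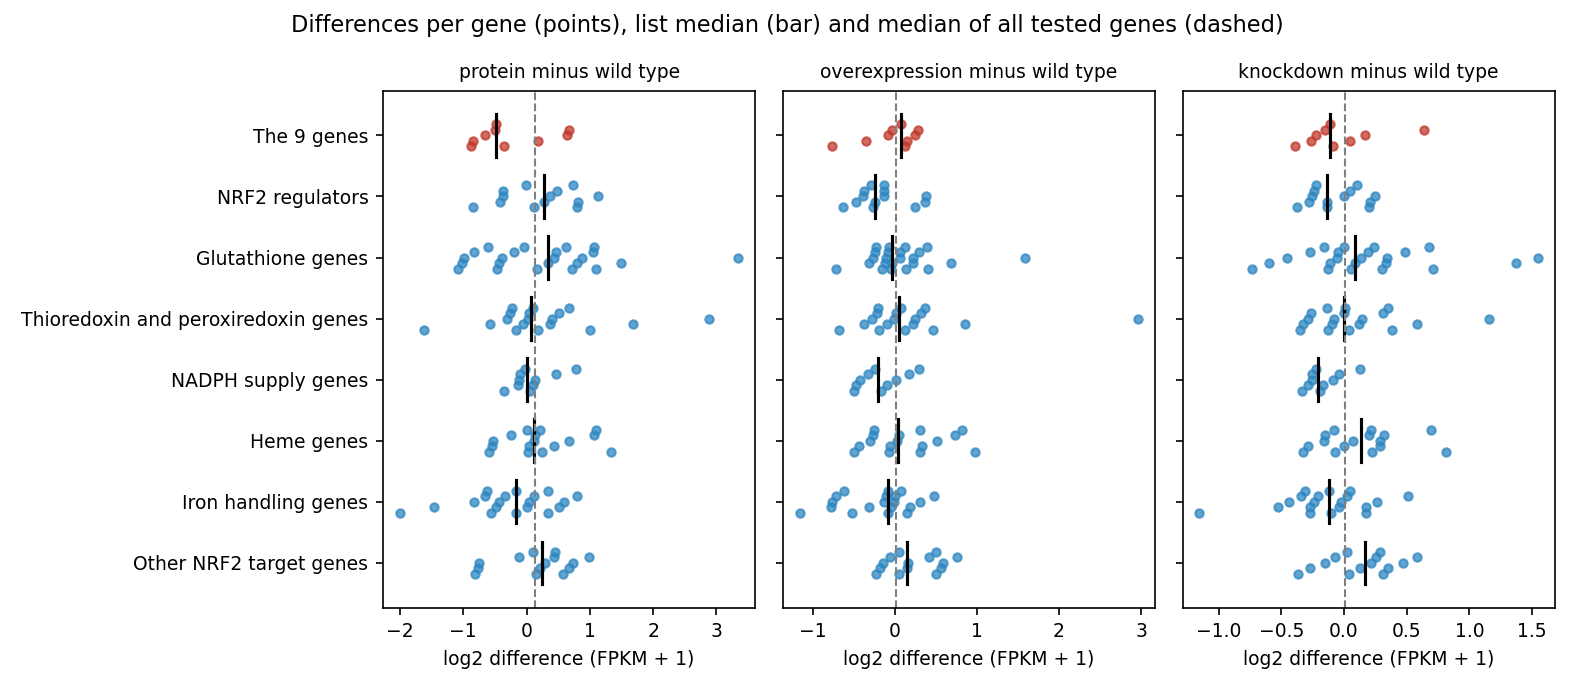
Log2 difference on the log2(FPKM + 1) scale (horizontal axis) of each tested gene (points) by gene list (vertical axis) in 3 comparisons, with the list's median (black bar) and the median of all tested genes (dashed line). The 9 genes have a median of -0.48 in protein minus wild type, below the median of all genes at 0.14.

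Overexpression and knockdown share their wild-type libraries with the protein comparison, so these differences are given side by side and are not independent. In overexpression against wild type 0 of 9 members were called by limma, as were 0% of all genes, with 0 members at an unadjusted p under 0.05, beside 3.93% of all genes higher and 2.42% lower. The members' median was 0.07 and that of all genes 0.01. GCLM and SRXN1 were lower in both lines, beside 30.6% of all genes, and TXN and FTL were higher in both, beside 30.9%. The differences of members other than GCLM and SRXN1 lay between -0.09 for TXNRD1 and 0.28 for FTH1. FTH1 in overexpression was 0.939 times wild type in OCI and 1.57 times in H929, and its difference was -0.26 without H929 overexpression. In knockdown the members' median was -0.11 and that of all genes 0.01.

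Whether protein treatment acted differently in the lines was tested with 8 group means, where only the knockdown pairs give a spread. The libraries of these pairs differed in AIMP1 mRNA, at 98.2% and 24.5% of wild type in H929 and 35.1% and 16.4% in OCI. They are therefore not plain replicates. None of the 9 members was called, beside 0.101% of all genes (13), and 0 had an unadjusted p under 0.05, beside 2.65% of all genes higher and 4.33% lower. FTH1 gave 0.91 ± 0.49 for OCI minus H929 (limma adjusted p = 0.751; 95% interval -0.34 to 2.17) and TXN -0.72 ± 0.65 (adjusted p = 0.818; 95% interval -2.36 to 0.92). GCLM gave 0.02 ± 0.78, an interval from -1.95 to 2.0, so these libraries hold little information on a difference of that kind.

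Between the lines, 0 of 9 members were called in OCI against H929, where 12.9% of all genes were called (978 higher and 680 lower), and 2 members, TXN and GCLC, were lower at an unadjusted p under 0.05, beside 13.6% of all genes. In 7 of 9 members the OCI estimate was lower, beside 50.2% of all genes. TXN gave -0.50 ± 0.20 (limma adjusted p = 0.121), and -0.71 with an adjusted p of 0.0308 under quantile normalization, the 1 case in which a member passed the threshold under any alternative; over the 19 settings its adjusted p ran from 0.0308 to 0.278. GCLC gave -0.49 ± 0.22 (adjusted p = 0.167), HMOX1 -0.54 ± 0.32 (adjusted p = 0.289) and FTH1 0.45 ± 0.22 (adjusted p = 0.206). The HMOX1 value was -0.27 with the protein library of 1 line left out, whichever the line, -0.34 with a wild-type library left out and -0.80 without OCI knockdown 2. That of FTH1 was 0.26 with a protein library left out and 0.67 with an overexpression library left out. The 5 OCI libraries were all below the 5 H929 libraries for TXN, as for 5.75% of all genes, and the lines overlapped for the other 8 members. Of the 8 related gene lists, 12 of 115 tested genes (10.4%) were called in OCI against H929, a share not above that of all genes. SQSTM1 was higher in OCI by 0.71 ± 0.17 (adjusted p = 0.0237) and MGST2 by 1.18 ± 0.31 (adjusted p = 0.0337). PRDX6, a peroxiredoxin with phospholipase activity, was lower in OCI, at 114 to 143 FPKM against 201 to 246 FPKM in H929 (-0.83 ± 0.14, adjusted p = 0.00566). CPOX, an enzyme of heme synthesis, was lower in OCI, at 14.3 to 23.3 FPKM against 63.2 to 154 FPKM in H929 (-2.38 ± 0.25, adjusted p = 0.000381). NXN, a thioredoxin-like protein, was lower in OCI, at 0.91 to 6.42 FPKM against 13.6 to 40.8 FPKM in H929 (-2.77 ± 0.44, adjusted p = 0.00366). In the thioredoxin list 1 gene was called higher (TXNL4A) and 3 lower (PRDX6, TXNDC12, NXN), in the glutathione list 1 higher, in the regulators 1 higher, in the heme list 1 lower, in the iron list 1 lower (TFR2) and among other NRF2 targets 1 higher (CBR1) and 2 lower (AKR1C3, ABCC4). None of the 10 NADPH supply genes was called. SOD1, cytosolic superoxide dismutase, was lower in OCI by a log2 difference of -0.68 ± 0.18 (adjusted p = 0.0341).

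The members were also compared with each other and with all tested genes by the Pearson correlation of log2(FPKM + 1), centred within each line, over the same 10 libraries, which share depth and composition; these values are descriptions. Among pairs of members, GCLC and TXN had 0.79, SRXN1 and TXNRD1 0.77, and GCLM and NQO1 0.69, whereas the subunit genes GCLC and GCLM had 0.40 and the ferritin chains FTH1 and FTL 0.37. The lowest value was -0.77, between FTH1 and SRXN1. The genes most like GCLM were CTPS1 (0.990), ELAVL1 (0.985) and CDC25A (0.979). Those most like TXN were FAM162A (0.980), POLR3G (0.974) and NDUFAF1 (0.971), and those most like SRXN1 were KBTBD7 (0.964), LRR1 (0.951) and SND1-IT1 (0.940). For GCLC they were WDR3 (0.954), JMJD4 (0.936) and PCNX4 (0.930), for TXNRD1 TOMM20 (0.941), SNTB2 (0.919) and RPL6P27 (0.915), and for NQO1 LSM5 (0.951), XRCC2 (0.933) and SLC35G1 (0.919). For HMOX1 they were HOXC4 (0.954), APTR (0.921) and ITPR1 (0.918), for FTH1 AHR (0.946), DENND2D (0.934) and BTG1 (0.926), and for FTL RASGRP3 (0.927), BBIP1 (0.920) and DERL1 (0.903). No member was among the 3 genes most like another. The median correlation of all tested genes with a member lay between -0.14 for NQO1 and 0.08 for FTL.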

How the data were processed

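The authors deposited 1 table of FPKM values, with 10 columns that were matched to the libraries by name; the wild-type columns carry a suffix, ZY, not explained by the labels. Poly(A) RNA was sequenced from both ends of each fragment on a NovaSeq, per the labels' protocols, which also mention adipose material. Per the submitters' processing notes, HISAT2 2.0, StringTie 1.3.0 and Bowtie 0.12.2 were used, with no roles named, and the build named is mm8, although the identifiers are human; gene coordinates are therefore given only for RefSeq promoter windows. FPKM scales by total fragments, so a few abundant RNAs can move all other values, and a 0 may be a failed estimate. The FPKM values of a library did not add up to a common total. Their sum was 3.44e+06 in H929 wild type, the lowest, and 1.06e+07 in H929 protein, the highest. In OCI it was 4.44e+06 in wild type, 3.84e+06 in protein, 7.89e+06 in overexpression, and 4.92e+06 and 7.43e+06 in knockdown 1 and 2.

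limma 3.58.1 in R 4.3.3 was run on log2(FPKM + 1), keeping the 12872 genes that averaged 1 FPKM or more; this scale understates changes of low genes. Line and manipulation were additive terms over all 10 libraries (5 residual degrees of freedom), variances were moderated with a trend, and Benjamini-Hochberg adjustment of two-sided p-values had a threshold of 0.05. Differences between lines in the effect of protein or knockdown used 8 group means, whose spread comes only from the knockdown pairs, which differ in AIMP1 mRNA. No read counts were used here and depth is unknown, so no counting intervals are given. The fits were run on simulated data, with independent normal noise around gene means, to check that added differences were estimated. Such data hold no shift in composition and no knockdown that left AIMP1 unchanged, so they do not show how the tests behave in these libraries. No pair of libraries was identical.

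The members and the 13 other gene lists were chosen with earlier results of these data known. Named genes are the members, AIMP1, a fixed set of NRF2, glutathione, heme and iron genes, and per list the called genes and up to 3 with the largest change of 1 sign in every library; likeness takes the 3 genes with the highest correlation. Of 182 list entries outside the members, 181 were found; SOD2 is not analysed here, and some genes that this rule names are not reported here. Alternatives were another pseudocount (0.1), no filter or a mean of at least 5 FPKM, median centring, quantile normalization, no variance trend, a replicate block, group means and leaving out each library.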

Additional observations from a re-analysis of the deposited data

Results flagged for a closer look

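HMOX1 stood on opposite sides of wild type in the 2 lines in the libraries labelled knockdown. The share of all tested genes with such opposite signs was not counted. In every library labelled knockdown, 13.6% of all tested genes were above wild type and 14.3% below it. Both OCI knockdown libraries were above wild type (19.0 and 34.0 FPKM, against 8.53 FPKM) and both libraries labelled H929 knockdown were below it (18.4 and 21.9 FPKM, against 23.2 FPKM), a difference of 1.67 on the log2 scale between OCI at 1.47 and H929 at -0.20. The test of that difference, added after the values had been seen, gave a limma adjusted p of 1. SRXN1 likewise was above wild type in both OCI knockdown libraries and below it in both libraries labelled H929 knockdown, a difference of 0.58 between OCI at 0.17 and H929 at -0.40 (limma adjusted p = 1). AIMP1 mRNA was not lower in the library labelled H929 knockdown 1, so the H929 direction rests in part on a library whose label AIMP1 mRNA does not bear out. Both directions also rest on 1 wild-type library per line. OCI wild type was the lowest of all 10 libraries for HMOX1, and H929 wild type the highest for SRXN1. Neither pattern was confined to knockdown. HMOX1 was 1.73 times wild type in OCI overexpression and 1.03 times in OCI protein. SRXN1 was 0.665 times wild type in H929 overexpression and 0.655 times in H929 protein.

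FTH1 in OCI protein, at 1441 FPKM, stood far from the other 4 OCI libraries, the nearest of which had 656 FPKM. FTL in the library labelled H929 knockdown 1, at 1604 FPKM, stood far from the other 3 libraries labelled knockdown, the nearest of which had 801 FPKM. In all, 27 groups of 4 or 5 libraries were examined in this way, and chance singles out about 1 group in 20.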

How the results depend on the processing

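No member was called under any alternative except TXN in OCI against H929, at -0.71 under quantile normalization (limma adjusted p = 0.0308). Directions turned in these cases. Under quantile normalization NQO1 was 0.065 and TXNRD1 0.025 in overexpression, NQO1 was -0.012 in OCI against H929, and GCLC in protein by line was 0.084 (0.10 under median centring). Leaving out each library in turn gave, in protein, HMOX1 from -0.50 to 0.86. In overexpression it gave HMOX1 from -0.26 to 0.75, NQO1 from -0.33 to 0.26, GCLC from -0.35 to 0.60, TXNRD1 from -0.22 to 0.046, TXN from -0.11 to 0.24, FTH1 from -0.26 to 0.82 and FTL from -0.053 to 0.35. In knockdown it gave NQO1 from -0.18 to 0.24, SRXN1 from -0.23 to 0.0013, TXNRD1 from -0.29 to 0.013, TXN from -0.24 to 0.052 and FTL from -0.10 to 0.36. In OCI against H929 it gave NQO1 from -0.15 to 0.19. The cause of these turns was not tested.

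Counts of called genes were unstable. In protein the 2 calls became 14 with no filter, 4 at a mean of at least 5 FPKM, 1 under median centring, 0 under quantile normalization, 7 with a replicate block, 12 with group means and 0 to 548 on leaving out a library (548 without OCI knockdown 2). In overexpression the 0 calls became 17 with no filter, 1 at a mean of at least 5 FPKM, 1 under quantile normalization, 1 with a replicate block and 0 to 5 on leaving out a library. In knockdown they became 11 with no filter, 3 with group means and 0 to 5 on leaving out a library. In OCI against H929 the 1658 calls became 1063 with no filter, 844 with group means and 800 to 1712 on leaving out a library. In protein by line the 13 calls became 7 with a pseudocount of 0.1, 1425 with no filter and 0 to 13 on leaving out a library; without a protein or a wild-type library it could not be fitted. GCLM has a mean under 5 FPKM and gave no value at that filter.

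Whether the knockdown number shared by the lines marks pairing stays unknown. The difference of knockdown 2 from knockdown 1 had a correlation of 0.076 across genes between the lines. That value cannot decide, since AIMP1 mRNA in knockdown 1 and 2 was 98.2% and 24.5% of wild type in H929 but 35.1% and 16.4% in OCI. The replicate block left each member on its side of the threshold. Depth is known only relative to OCI wild type, and with 1 library per line in 3 of 4 groups these data resolve large differences only.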
